A study of Mus musculus with 12 samples.

Results

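The Wnt target and inhibitor genes described here are 9 genes, Axin2, Nkd1, Lef1, Znrf3, Rnf43, Apcdd1, Sfrp1, Sfrp2 and Dkk3, out of 22183 genes in a table of mouse aorta RNA sequencing. They were taken by symbol, and all 9 passed the filter on low counts in each of the 3 comparisons. They were chosen by symbol with their counts in these same 12 libraries, compared between the 3 groups, already known, so their differences between groups are given as a description, without a test of their own. The 12 libraries came from aorta, taken from its ascending part down to its lower fork, of male mice that lack apolipoprotein E (genotype APOE-/-), 8 weeks old at the start, a strain that develops atherosclerotic lesions. The NFD group (4 libraries) was fed a normal diet with 5% fat and no cholesterol and received saline. The HFD group (4 libraries) ate a high-fat chow holding 16% fat with 0.25% cholesterol and also got saline. The HFD+TUDCA group (4 libraries) ate that same chow and, from week 8 onward, was given tauroursodeoxycholic acid (TUDCA) at 1000 mg/kg by daily gavage over 4 weeks, the period over which saline was given to the rest. This hydrophilic bile acid, conjugated with taurine, serves as a chemical chaperone. The gene knockout is shared by all groups, so no group shows the diet or TUDCA in mice with apolipoprotein E, and nothing in the labels says whether each library came from a separate animal.

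In canonical Wnt signaling a secreted Wnt protein binds a Frizzled receptor with the co-receptor Lrp5 or Lrp6. This stops the destruction of beta-catenin, which then joins TCF and LEF proteins on DNA and switches on target genes. Several targets encode brakes on the pathway itself. Axin2 is a scaffold for the destruction of beta-catenin, Nkd1 binds Dishevelled, Znrf3 and Rnf43 are ubiquitin ligases that remove Frizzled receptors from the cell surface, and Apcdd1 is a membrane inhibitor. Sfrp1 and Sfrp2 are secreted proteins that bind Wnts, and Dkk3 is a secreted member of the Dickkopf family whose role in Wnt signaling differs between cell types. In the vessel wall, Wnt signaling is known for its part in smooth muscle growth, endothelial function and vascular calcification.

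Total counts were 15199317 to 22061692 per library, and levels are given as CPM, the usual scaling of counts by library size, here normalized by the trimmed mean of M-values. A count of 0 allowed up to 0.136 to 0.197 CPM, for counting error only. The libraries farthest out on the first 2 principal components were HFD+TUDCA replicate 4, HFD replicate 1 and HFD replicate 4. Smooth muscle and endothelial markers (7 genes each) were present in every library. The smooth muscle sum was 2958 to 3928 CPM in NFD, 1884 to 3372 CPM with HFD and 2445 to 5468 CPM under HFD+TUDCA. In the same order, the endothelial sum was 1357 to 1691, 1137 to 1649 and 1068 to 1393 CPM. Markers of other tissues were present as well, and the summed level of 7 heart muscle markers ranged from 44.7 CPM in HFD+TUDCA replicate 4 to 9477 CPM in HFD+TUDCA replicate 3. Macrophage markers (7 genes, none at 0 in any library) summed to 487 to 625 CPM in the NFD libraries. Their sum was 1747 to 3343 CPM with HFD and 799 to 1260 CPM with HFD+TUDCA. Neutrophil markers (6 genes, none at 0) also separated HFD, at 252 to 1013 CPM, from NFD, at 51.1 to 62.4 CPM, and HFD+TUDCA, at 75.3 to 115 CPM. Airway epithelium markers (6 genes, with Krt5 at 0 in 2 libraries) summed to 728 to 1991 CPM in NFD, 4.16 to 593 CPM with HFD and 2.99 to 1137 CPM under HFD+TUDCA. Cartilage markers likewise did not overlap between NFD (235 to 455 CPM) and HFD (99.2 to 139 CPM). The heart muscle, macrophage, neutrophil, airway epithelium and cartilage lists separate HFD from NFD as Axin2, Nkd1, Apcdd1 and Dkk3 do. The macrophage and neutrophil lists also separate HFD from HFD+TUDCA, as Axin2 does. The part of these lists and of the smooth muscle list in those genes' values was not tested. In bulk tissue, fewer cells of a type and less RNA per cell cannot be told apart.

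Promoter sequences of these genes show whether the element bound by TCF and LEF proteins lies at their start. RefSeq on GRCm38.p6 gave windows of 300 bases, from 250 before to 50 after a start, for 5 of the 9 genes. The windows of Axin2 and Nkd1 are shown because these targets were lower in HFD than in NFD without overlap, and the Lef1 window because it is the member window in which the element was found. The 3 windows are chr11:108920099-108920398, chr8:88527383-88527682 and chr3:131156044-131156343, all on the plus strand at RefSeq starts (those of Nkd1 and Lef1 lie inside the GENCODE gene), and capitals mark the 6 letters CTTTGA or their reverse complement TCAAAG.
Axin2: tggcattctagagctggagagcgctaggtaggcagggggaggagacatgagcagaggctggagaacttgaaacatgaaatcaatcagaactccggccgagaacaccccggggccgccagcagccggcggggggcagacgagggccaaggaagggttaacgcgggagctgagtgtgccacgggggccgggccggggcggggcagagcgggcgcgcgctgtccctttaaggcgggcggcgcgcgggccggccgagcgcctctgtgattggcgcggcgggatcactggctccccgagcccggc
Nkd1: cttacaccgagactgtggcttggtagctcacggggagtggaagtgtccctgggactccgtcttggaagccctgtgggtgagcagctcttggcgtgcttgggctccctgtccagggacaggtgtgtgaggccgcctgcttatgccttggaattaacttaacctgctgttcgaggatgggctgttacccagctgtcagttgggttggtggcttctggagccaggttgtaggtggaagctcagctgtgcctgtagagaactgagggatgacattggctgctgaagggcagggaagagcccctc
Lef1: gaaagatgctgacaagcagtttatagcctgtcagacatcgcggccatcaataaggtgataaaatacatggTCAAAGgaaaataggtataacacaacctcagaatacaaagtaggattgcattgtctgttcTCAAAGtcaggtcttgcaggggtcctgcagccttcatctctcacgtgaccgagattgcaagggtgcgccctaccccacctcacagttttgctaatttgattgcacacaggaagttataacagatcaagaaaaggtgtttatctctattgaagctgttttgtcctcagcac

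The 6 letters were found in 1 of the 4 Lef1 windows, with matches that begin 180 and 120 bases before the start, and in none of the windows of Axin2, Nkd1, Sfrp2 and Rnf43. Among all 32851 promoter windows, 16.0% held them on either strand. The longer form CTTTGAT or ATCAAAG, which contains the shorter one, was in 3.73% of all windows and in none of the 9 member windows. The Axin2 window was 70.0% G and C, that of Nkd1 58.3% and the printed Lef1 window 43.7%, against a median of 52.7%. A match describes letters in a short window, and the absence of one says nothing of elements elsewhere.

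The high-fat diet group had lower levels of the targets Axin2, Nkd1 and Apcdd1 and of Dkk3 than NFD, with no overlap between the libraries of the groups. In HFD+TUDCA, Axin2 was above every HFD library. HFD lay wholly below NFD in 6.82% of all genes tested, and HFD+TUDCA wholly above HFD in 2.75%. None of the members' differences passed the edgeR test across all genes. DESeq2 called Nkd1 and Dkk3 in HFD vs NFD, beside 9.3% of all genes it tested, and Axin2 in HFD+TUDCA vs HFD, beside 1.94%. The members were chosen with these values known, so these separations and calls are not evidence about them. Axin2 (ENSMUSG00000000142, chromosome 11, 108920349 to 108950783, plus strand, GENCODE M21 on GRCm38) had levels of 15.3, 16.7, 12.0005 and 10.9 CPM in NFD replicates 1 to 4. With HFD it was 6.12, 10.2, 9.30 and 9.91 CPM, and under HFD+TUDCA 19.4, 17.3, 15.2 and 18.7 CPM. All 4 HFD libraries were below all other libraries, and the NFD and HFD+TUDCA libraries overlapped. The means were 13.7 ± 2.76 CPM in NFD, 8.90 ± 1.89 CPM with HFD and 17.6 ± 1.83 CPM under HFD+TUDCA (SD, n = 4 each). The log2 fold change was -0.63 ± 0.22 (SE) for HFD vs NFD, 1.02 ± 0.21 for HFD+TUDCA vs HFD and 0.36 ± 0.18 for HFD+TUDCA vs NFD. The second of these is a 2.03-fold higher level. The comparisons share groups, so these values are not independent. Markers of brown fat had overlapping ranges between the groups, lowest in HFD, where Axin2 was lowest: the summed level of 4 genes (Ucp1, Cidea, Elovl3 and Cox8b, none at 0) was 2588 to 3965 CPM in NFD, 739 to 3076 CPM with HFD and 2864 to 6743 CPM under HFD+TUDCA. Macrophage and neutrophil markers, higher in HFD, separated HFD from both other groups without overlap, as Axin2 did in the other direction. The part of these lists in the Axin2 result was not tested.

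Nkd1 (ENSMUSG00000031661, chromosome 8, 88521354 to 88594884, plus strand) was 16.2, 18.3, 15.6 and 16.7 CPM in NFD replicates 1 to 4. In HFD it was 11.4, 10.03, 14.6 and 9.67 CPM, and in HFD+TUDCA 14.6, 11.3, 16.1 and 15.1 CPM. Every HFD library lay below every NFD library, while HFD+TUDCA overlapped both. On the log2 scale the fold change was -0.54 ± 0.18 for HFD vs NFD, which is 1.46-fold lower, and 0.35 ± 0.22 for HFD+TUDCA vs HFD. Axin2 and Nkd1 thus differed in HFD+TUDCA, where Axin2 was above all HFD libraries and Nkd1 was not, although this difference between the genes was not tested.

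Apcdd1 (ENSMUSG00000071847, chromosome 18, 62922231 to 62961179, plus strand) was the most uneven of these within HFD. Its level was 38.5, 44.0, 49.1 and 42.5 CPM in NFD, 28.1, 38.0, 16.2 and 8.29 CPM with HFD and 41.0, 30.5, 26.2 and 21.2 CPM under HFD+TUDCA. The highest HFD library was just below the lowest NFD library, and HFD replicates 3 and 4 were below every other library. Its log2 fold change was -0.93 ± 0.39 for HFD vs NFD, -0.55 ± 0.20 for HFD+TUDCA vs NFD and 0.41 ± 0.43 for HFD+TUDCA vs HFD. The last value ranged from 0.13 without HFD replicate 4 to 0.77 without HFD replicate 2.

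Lef1 (ENSMUSG00000027985, chromosome 3, 131110471 to 131224356, plus strand), which encodes a DNA-binding partner of beta-catenin and is itself a target, split the libraries within groups more than between them. It was 21.01, 22.2, 20.0 and 18.9 CPM in NFD, a narrow range. In HFD it was 1.35, 21.2, 4.82 and 22.8 CPM, and in HFD+TUDCA 11.1, 16.8, 15.7 and 1.07 CPM. HFD replicates 1 and 3 and HFD+TUDCA replicate 4 were the low libraries, and the other HFD libraries lay within or just above the NFD range. The log2 fold change was -0.71 ± 0.67 for HFD vs NFD and -0.88 ± 0.61 for HFD+TUDCA vs NFD, where all HFD+TUDCA libraries were below all NFD libraries. The first value ranged from -1.20 without HFD replicate 4 to -0.34 without HFD replicate 1, and the second was -0.52 without HFD+TUDCA replicate 4. For HFD+TUDCA vs HFD it was -0.13 ± 0.90, and it ranged from -0.51 without HFD replicate 1 to 0.31 without HFD replicate 4.

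Rnf43 (ENSMUSG00000034177, chromosome 11, 87662722 to 87735539, plus strand) was close to the limit of counting, with 9 to 62 counts per library. It was 3.28, 1.93, 1.26 and 1.94 CPM in NFD, 0.551, 1.504, 0.736 and 1.92 CPM with HFD and 2.54, 2.34, 2.65 and 0.558 CPM under HFD+TUDCA. Its 3 lowest libraries were those in which Lef1 was lowest. The log2 fold change was -0.83 ± 0.47 for HFD vs NFD and 0.80 ± 0.56 for HFD+TUDCA vs HFD, the former being -0.53 without NFD replicate 1. Znrf3 (ENSMUSG00000041961, chromosome 11, 5276324 to 5444847, minus strand), the paralog of Rnf43, varied little, from 6.46 to 10.8 CPM over all 12 libraries. The group means of Znrf3 were 7.74 ± 0.998, 7.94 ± 0.438 and 7.86 ± 1.98 CPM in NFD, HFD and HFD+TUDCA (SD, n = 4 each). Its log2 fold change was 0.05 ± 0.18 for HFD vs NFD and 0.02 ± 0.24 for HFD+TUDCA vs HFD, and its sign turned in some alternatives.

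**Figure D1:**
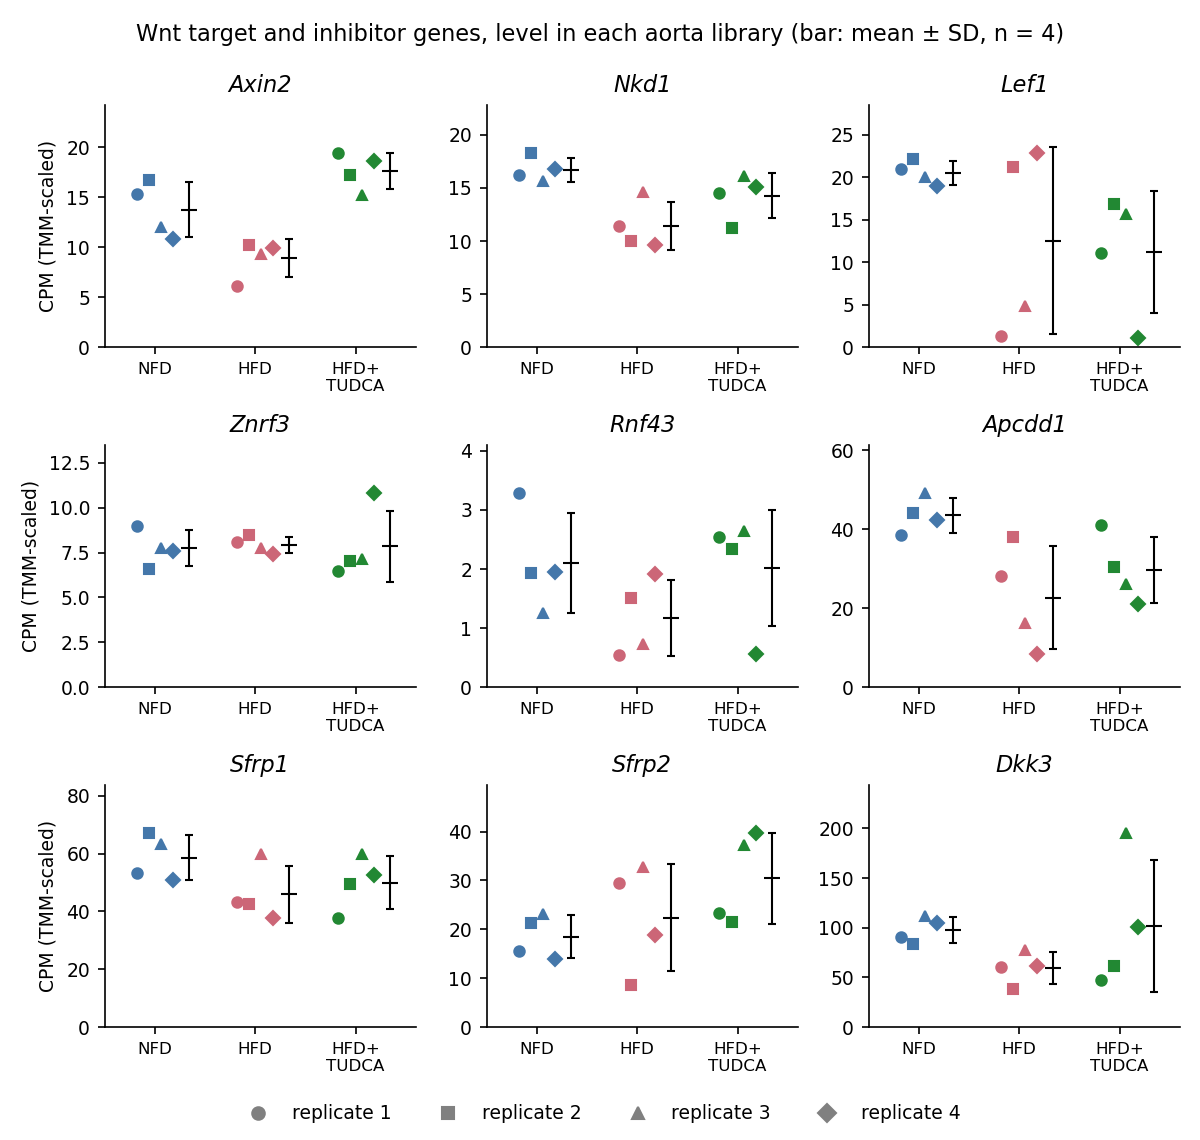
Level of each of the 9 genes in CPM (y axis, from 0) in the 12 libraries (x axis, by group), with 1 point per library, its shape giving the replicate number, and a bar at the mean ± SD of the 4 libraries. Axin2 in HFD lies between 6.12 and 10.2 CPM, below all other libraries, and Lef1 in HFD splits into 2 low and 2 high libraries.

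Among the secreted inhibitors, Dkk3 was lower in HFD than in NFD without overlap, Sfrp1 overlapped, and the mean of Sfrp2 was higher in both high-fat groups than in NFD, with overlap. Dkk3 (ENSMUSG00000030772, chromosome 7, 112116017 to 112159057, minus strand) was 90.6, 83.4, 112 and 105 CPM in NFD, 60.1, 38.3, 77.2 and 61.5 CPM with HFD and 47.4, 62.0, 195 and 101 CPM under HFD+TUDCA. All HFD libraries were below all NFD libraries, and HFD+TUDCA replicate 3 was far above all others. The log2 fold change was -0.72 ± 0.20 for HFD vs NFD, which is 1.64-fold lower. It was 0.80 ± 0.43 for HFD+TUDCA vs HFD and 0.05 ± 0.39 for HFD+TUDCA vs NFD. Without HFD+TUDCA replicate 3 these were 0.28 and -0.48, and without HFD+TUDCA replicate 1 they were 1.04 and 0.29.

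Sfrp1 (ENSMUSG00000031548, chromosome 8, 23411502 to 23449632, plus strand) was 53.2, 67.0, 63.5 and 50.7 CPM in NFD, 43.3, 42.6, 60.0 and 37.7 CPM with HFD and 37.9, 49.5, 59.7 and 52.8 CPM under HFD+TUDCA. Apart from HFD replicate 3, the HFD libraries were below all NFD libraries. This gave a log2 fold change of -0.35 ± 0.17 for HFD vs NFD and 0.15 ± 0.21 for HFD+TUDCA vs HFD, the latter from 0.05 without HFD replicate 4 to 0.29 without HFD replicate 3. Sfrp2 (ENSMUSG00000027996, chromosome 3, 83766321 to 83774316, plus strand) was 15.5, 21.3, 23.1 and 14.0 CPM in NFD, 29.5, 8.63, 32.7 and 18.8 CPM with HFD and 23.3, 21.5, 37.2 and 39.6 CPM under HFD+TUDCA. HFD replicate 2 was the lowest and HFD+TUDCA replicate 4 the highest of the 12. Sfrp2 had a log2 fold change of 0.28 ± 0.37 for HFD vs NFD, 0.46 ± 0.41 for HFD+TUDCA vs HFD and 0.72 ± 0.25 for HFD+TUDCA vs NFD. The first of these ranged from 0.04 without HFD replicate 3 to 0.56 without HFD replicate 2, and the second from 0.19 without HFD replicate 2 to 0.69 without HFD replicate 3. Exons of antisense genes on the opposite strand overlap those of Axin2, Lef1 and Sfrp2 in GENCODE M21. Whether the counting used strand is not given in the sources used here, so reads of such pairs may not be told apart.

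Across all 14918 genes tested for HFD vs NFD with the quasi-likelihood test of edgeR (Benjamini-Hochberg adjusted p under 0.05), 4.83% were called, and 0 of the 9 members were. At an unadjusted p under 0.05 there were 4 members and 3126 of the 14918 genes. DESeq2 called 2 members, Nkd1 and Dkk3, and 9.30% of the 18445 genes it tested. Of 8 leave-one-out fits with edgeR, 1 called Nkd1 and Dkk3, that without HFD replicate 3. The groups did not overlap, with HFD lower, in 4 of the 9 members and in 6.82% of all genes tested. With HFD higher they did not overlap in 0 of the members and 8.12% of all genes. Since the members were chosen with these values known, none of these counts and calls, nor the median and signs below, is evidence about them. The median log2 fold change was -0.63 over the 9 members and 0.04 over all genes tested. A negative value was found in 7 of the 9 and in 6875 of the 14918 genes.

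For HFD+TUDCA vs HFD, edgeR called 0 of 14587 genes (0%) and 0 of the 9 members. There were 1745 genes and 1 member, Axin2, at an unadjusted p under 0.05, and DESeq2 called 356 genes (1.94%), among them Axin2. Axin2 was also called by edgeR when all 12 libraries were fitted together. These were 2 of 14 alternatives, and it was called in 0 of the 8 leave-one-out fits. The members were chosen with these values known, so their counts and calls in this and the next comparison are not evidence about them. The groups did not overlap, with HFD+TUDCA higher, in 1 of 9 members and in 2.75% of all genes, and with HFD+TUDCA lower in 0 of 9 and in 4.80%. The median over the members was 0.41, beside 0.00 over all genes tested. A positive value was found in 8 of 9 members and in 7295 of the 14587 genes. For HFD+TUDCA vs NFD, edgeR called 0 of 9 members and 0.194% of 14942 genes. There were 2 members and 11.5% of all genes at an unadjusted p under 0.05, and DESeq2 called 0 members and 2.96% of all genes. In 1 member, Lef1, the HFD+TUDCA libraries were all below the NFD libraries, as in 3.45% of all genes, and 0 members were all above, as 3.93% of all genes were. The median over the members was -0.06, beside 0.01 over all genes tested.

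**Figure D2:**
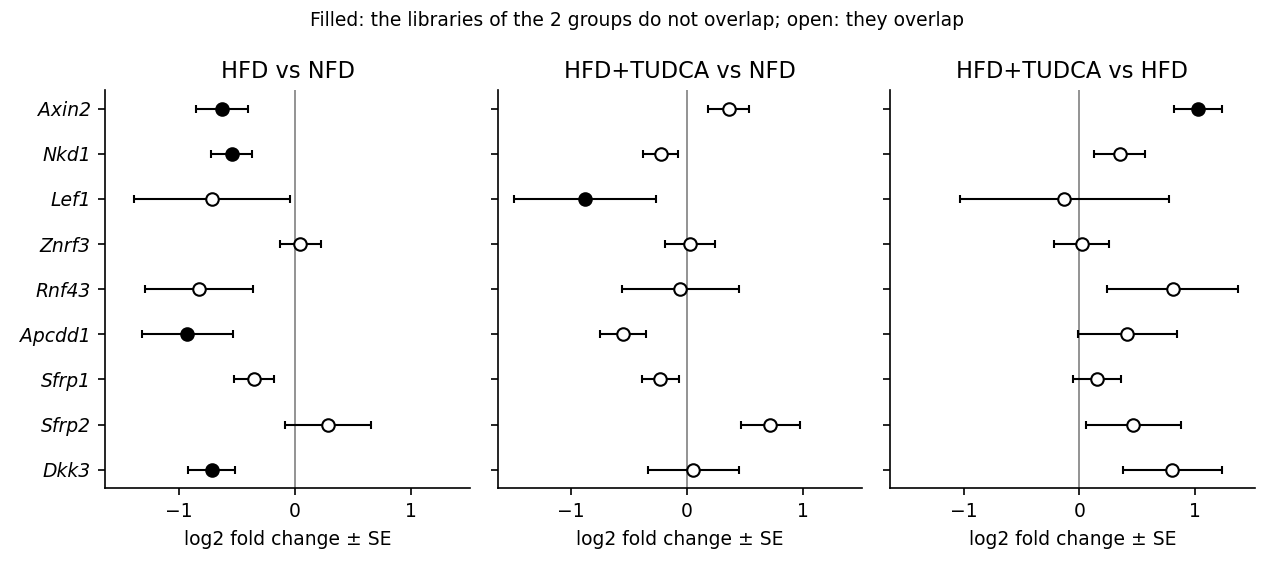
Log2 fold change (x axis) with its SE for each of the 9 genes (y axis) in the 3 comparisons, filled where the libraries of the groups do not overlap and open where they do. Axin2 is the gene filled in both HFD vs NFD (-0.63) and HFD+TUDCA vs HFD (1.02), and the wide errors of Lef1 and Rnf43 go with libraries that differ within a group.

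The spread of Lef1 and Rnf43 within groups went with T cell markers (Cd3d, Cd3e, Cd3g, Cd4, Cd8a, Trbc2 and Lat, none at 0 in any library). Their summed level was 274, 239, 196 and 218 CPM in NFD replicates 1 to 4. It was 77.9, 348, 65.9 and 370.2 CPM in HFD and 179, 257, 265 and 25.7 CPM in HFD+TUDCA. The 3 libraries lowest in these markers were the 3 lowest in Lef1 and in Rnf43. They were also the 3 lowest in skeletal muscle markers (Acta1, Ckm, Myh4, Myh1 and Tnnt3, none at 0), at 47.0, 44.0 and 14.8 CPM against at least 122 CPM elsewhere, and the 3 highest on the first principal component. The groups' ranges of the skeletal muscle sum were 122 to 1399 CPM in NFD, 44.0 to 885 CPM with HFD and 14.8 to 1122 CPM under HFD+TUDCA. Tcf7, a partner of beta-catenin that is also known for its high level in T cells and is named here, as are Tcf7l1 and Tcf7l2, after its values were seen, was 18.6 and 15.7 CPM in HFD replicates 1 and 3 and 6.95 CPM in HFD+TUDCA replicate 4. In the other 9 libraries Tcf7 lay between 42.4 and 109 CPM. The other TCF genes did not share this split, with Tcf7l1 between 17.7 and 27.1 CPM and Tcf7l2 between 5.18 and 8.47 CPM in all 12 libraries. The part of T cells, of skeletal muscle or of other differences between these libraries in the values of Lef1 and Rnf43 was not tested.

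Dkk3 was highest in the library with the highest sum of heart muscle markers (Myh6, Tnnt2, Tnni3, Actc1, Myl7, Nppa and Ryr2, none at 0), HFD+TUDCA replicate 3. That sum was 3057 to 8345 CPM in NFD, 338 to 2378 CPM with HFD and 44.7 to 9477 CPM under HFD+TUDCA. In NFD replicates 1 to 4 the heart sums were 3817, 3057, 6133 and 8345 CPM, and Dkk3 was 90.6, 83.4, 112 and 105 CPM. In HFD replicates 1 to 4 the heart sums were 338, 722, 819 and 2378 CPM, and Dkk3 was 60.1, 38.3, 77.2 and 61.5 CPM. In HFD+TUDCA replicates 1 to 3 the heart sums were 1611, 1918 and 9477 CPM, and Dkk3 was 47.4, 62.0 and 195 CPM. In HFD+TUDCA replicate 4 the heart sum was at its lowest, 44.7 CPM, and Dkk3 was 101 CPM. That library also held the highest sum of contractile smooth muscle markers, 5468 CPM. The part of heart tissue or of smooth muscle in the Dkk3 values was not tested.

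**Figure D3:**
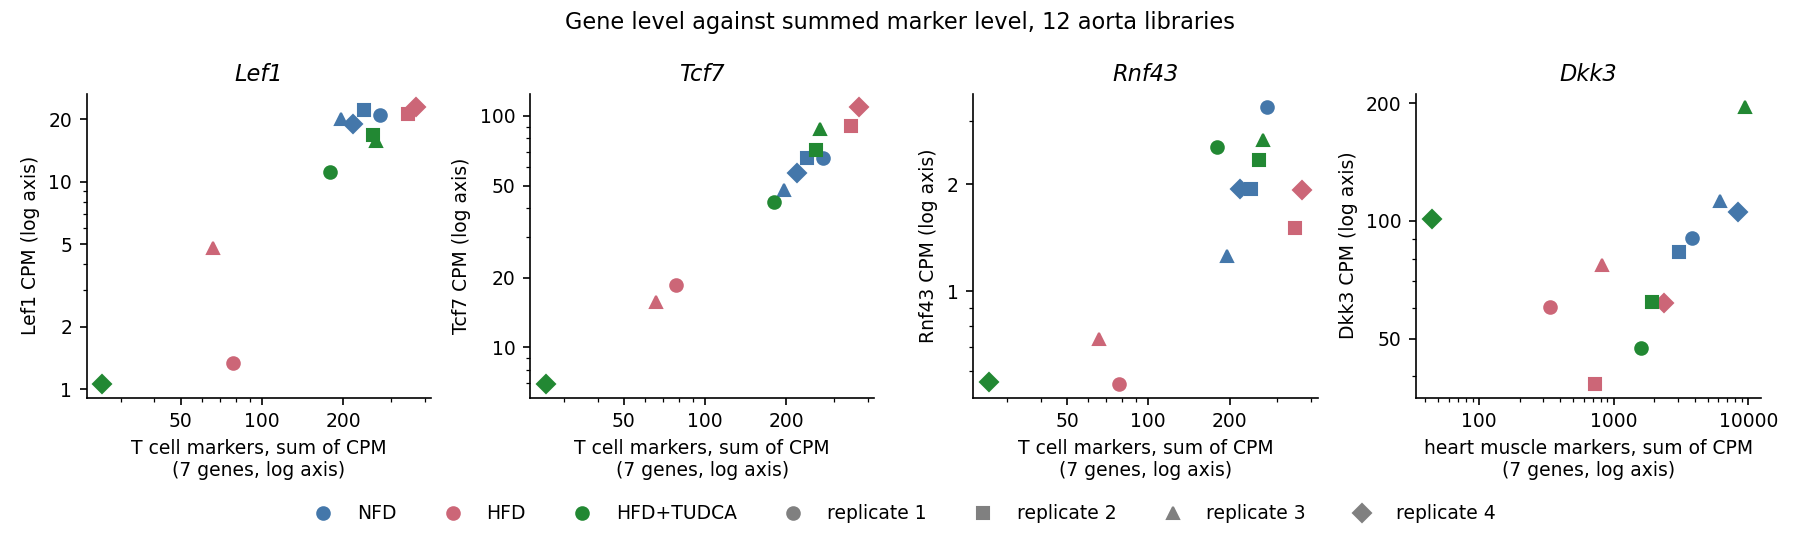
Level of Lef1, Tcf7, Rnf43 and Dkk3 (y axes, CPM, log axes) against the summed level of 7 T cell markers or, for Dkk3, 7 heart muscle markers (x axes, CPM, log axes), with 1 point per library, colored by group. The libraries with 25.7, 65.9 and 77.9 CPM of T cell markers hold the lowest Lef1, Tcf7 and Rnf43. For Dkk3 the libraries at 44.7 and 9477 CPM of heart markers stand at 101 and 195 CPM.

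Per gene length, in the deposited FPKM (fragments per kilobase of transcript, scaled to the reads mapped), Dkk3 had the highest mean level of the 9 genes at 25.9 ± 13.4 FPKM (SD over 12 libraries), with a range that overlapped that of Sfrp1. Sfrp1 (11.8 ± 2.48), Sfrp2 (11.8 ± 4.52) and Apcdd1 (8.92 ± 3.83 FPKM) followed and did not differ from one another beyond their spread. Lef1 (5.98 ± 3.35), Nkd1 (5.74 ± 1.36) and Axin2 (3.76 ± 1.07 FPKM) came next, again with overlapping spread. Znrf3 (1.38 ± 0.202 FPKM) and Rnf43 (0.454 ± 0.248 FPKM) were lowest, and their ranges of 1.12 to 1.72 and 0.14 to 0.919 FPKM did not overlap. The secreted inhibitors thus had higher mean levels per length than the intracellular and membrane feedback genes, though Sfrp1 and Sfrp2 overlapped Apcdd1 in spread. The SD of log2 CPM over the 12 libraries was smallest for Znrf3 (0.20), Sfrp1 (0.28) and Nkd1 (0.31) and greatest for Lef1 (1.54).

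**Figure D4:**
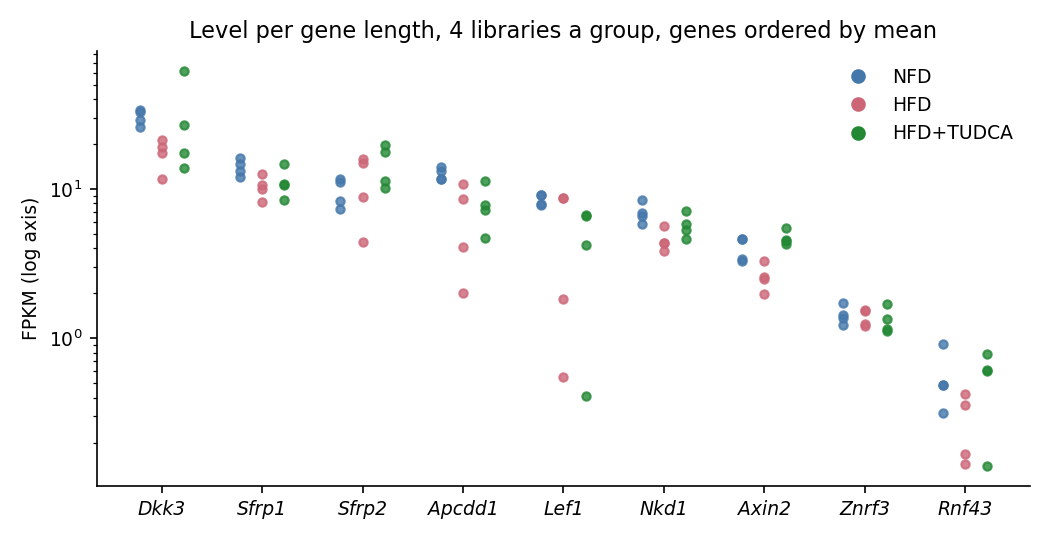
FPKM of each gene (y axis, log axis) in the 12 libraries, colored by group, with genes ordered along the x axis by their mean. Dkk3 has the highest mean at 25.9 FPKM and Rnf43 the lowest at 0.454 FPKM.

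Likeness of pattern was measured as the root-mean-square difference of log2 CPM, centered on each gene's mean over the 12 libraries, so that 0 is an identical pattern. Among the members Nkd1 and Sfrp1 were most alike, with a difference of 0.21, and Axin2 was nearest to Nkd1 at 0.43. Among all genes tested, the nearest to Axin2 were Mmab, Tmem88b and Nek8 (0.20 to 0.22), and to Nkd1 Tgfb3, Slc2a10 and Afap1l1 (0.08 to 0.13). The nearest to Lef1 were Cd8b1, Cd8a and Unc5cl (0.39 to 0.45), and to Rnf43 Lsmem2, Hs3st3a1 and Cbx8 (0.32 to 0.36). For Apcdd1 they were Stox1, Cyp2ab1 and Fam214a (0.28 to 0.34), and for Znrf3 Aak1, Necap1 and Pafah1b2 (0.08 to 0.10). For Sfrp1 they were Tgds, Cfap298 and Fgf11 (0.12 to 0.16), and for Sfrp2 Scube3, Serpine2 and Ccn5 (0.28 to 0.32). Genes with a flat pattern have small differences for that reason alone.

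Of 88 other Wnt pathway genes in 7 lists, 75 could be tested for HFD vs NFD with edgeR, and 1 rose, 2 fell and 72 did not pass, against a background in which 3.18% of all genes tested were called higher and 1.64% lower. DESeq2 called 9 of the 86 it tested, 3 higher and 6 lower, against 9.30% of all genes. By edgeR the ligand Wnt2b fell, the secreted inhibitor Wif1 fell, and the secreted inhibitor Frzb rose. These 3 are 4% of the 75, beside 4.83% of all genes called. The 7 lists were chosen with earlier results of these data known. The median log2 fold change of the 75 was -0.12, beside 0.04 over all genes. Without HFD replicates 1 and 4 none of the 3 was called (11 of the 75 at an unadjusted p under 0.05, against 2315 of all 15425 genes). Wnt2b (ENSMUSG00000027840, chromosome 3, 104945272 to 104961921, minus strand) was 20.2, 16.1, 18.4 and 20.7 CPM in NFD, 6.67, 12.1, 11.7 and 9.19 CPM with HFD and 9.22, 8.91, 8.67 and 14.1 CPM under HFD+TUDCA. Both high-fat groups lay wholly below NFD. Wnt2b fell 1.90-fold in HFD vs NFD (log2 fold change -0.92 ± 0.20, edgeR adjusted p = 0.0349), and the value for HFD+TUDCA vs NFD was similar in size but did not pass (-0.88 ± 0.19, edgeR adjusted p = 0.129). It passed without HFD+TUDCA replicate 4 (edgeR adjusted p = 0.00587), and over all alternatives the adjusted p ranged from 0.00492 with DESeq2 to 0.3995 without NFD replicate 3. HFD+TUDCA vs HFD gave 0.08 ± 0.27 (edgeR adjusted p = 0.931). The call of HFD vs NFD held in 2 of 8 leave-one-out fits (those without HFD replicate 2 or 3), at an edgeR adjusted p of 0.0312 to 0.109. With the replicate number as a block this call was lost.

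Frzb (ENSMUSG00000027004, chromosome 2, 80411970 to 80447625, minus strand), a relative of Sfrp1 and Sfrp2 that also binds Wnts, was 4.82, 6.36, 5.32 and 4.99 CPM in NFD. It was 39.2, 10.03, 33.7 and 15.4 CPM in HFD and 8.58, 11.8, 34.7 and 33.2 CPM in HFD+TUDCA. All high-fat libraries were above all NFD libraries, with a wide spread within both groups. The summed macrophage and neutrophil markers also separated NFD from both high-fat groups, as Frzb did and, in the other direction, Wnt2b. The part of these markers in the Frzb and Wnt2b values was not tested. Frzb rose 4.61-fold in HFD vs NFD (log2 fold change 2.21 ± 0.41, edgeR adjusted p = 0.0190), and HFD+TUDCA vs NFD gave 2.04 ± 0.45 (edgeR adjusted p = 0.129). The call of HFD vs NFD held in 5 of 8 leave-one-out fits and was lost without NFD replicate 1, 3 or 4 (edgeR adjusted p 0.00637 to 0.0769). It was also lost with the replicate number as a block. Wif1 (ENSMUSG00000020218, chromosome 10, 121033960 to 121100650, plus strand), Wnt inhibitory factor, was 8.36, 10.7, 4.97 and 3.04 CPM in NFD, 1.35, 1.28, 2.41 and 1.14 CPM with HFD and 3.44, 0.632, 8.37 and 4.57 CPM under HFD+TUDCA. The HFD libraries were all below NFD, and the HFD+TUDCA libraries reached from below HFD into the NFD range. Wif1 fell 4.39-fold in HFD vs NFD (log2 fold change -2.14 ± 0.44, edgeR adjusted p = 0.0264), a call held in 4 of 8 leave-one-out fits and lost without NFD replicate 1, 2 or 3 or HFD replicate 1 (edgeR adjusted p 0.0200 to 0.0861). It was also lost in the fit of all 12 libraries (edgeR adjusted p = 0.0863). Cartilage markers (Acan, Col2a1, Col10a1, Cytl1, Comp and Chad, none at 0) moved alongside Wif1, with a summed level of 235 to 455 CPM in NFD, 99.2 to 139 CPM with HFD and 105 to 318 CPM under HFD+TUDCA, and their part was not tested.

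By list, 13 of 19 Wnt ligands could be tested for HFD vs NFD, with 11 negative values and a median log2 fold change of -0.41. Of all 14918 genes tested, 6875 had a negative value. Receptors and co-receptors (16 of 16 tested, median -0.19), R-spondins and their receptors (5 of 7, -0.26), the beta-catenin core (21 of 21, -0.01) and other targets (6 of 8, -0.11) had no edgeR call. The list of other inhibitors (12 of 15 tested) had a median of 0.01, with Frzb higher and Wif1 lower, and the secretion genes Porcn and Wls (2 of 2 tested, -0.09) had no edgeR call. The most abundant gene of each list by mean CPM was Wnt2b among ligands, Wls (57.5 to 95.7 CPM), Fzd4 (47.7 to 228 CPM), Lgr6 (21.3 to 120.03 CPM), Ctnnb1 (366 to 565 CPM), Kremen1 (30.2 to 77.1 CPM) and Ccnd1 (33.7 to 76.5 CPM). These levels compare libraries for a gene, not genes with each other, since CPM does not divide by length. Exons of Ctnnb1 and Ccnd1 overlap those of genes on the opposite strand. For HFD+TUDCA vs HFD edgeR called 0 of 72 pathway genes (5 at an unadjusted p under 0.05, against 1745 of all 14587 genes, and 0 with DESeq2), with a median log2 fold change of 0.13. For HFD+TUDCA vs NFD it called 0 of 75 (12 at an unadjusted p under 0.05, against 11.5% of all genes, and 5 of 85 with DESeq2, against 2.96%), with a median of -0.04.

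**Figure D5:**
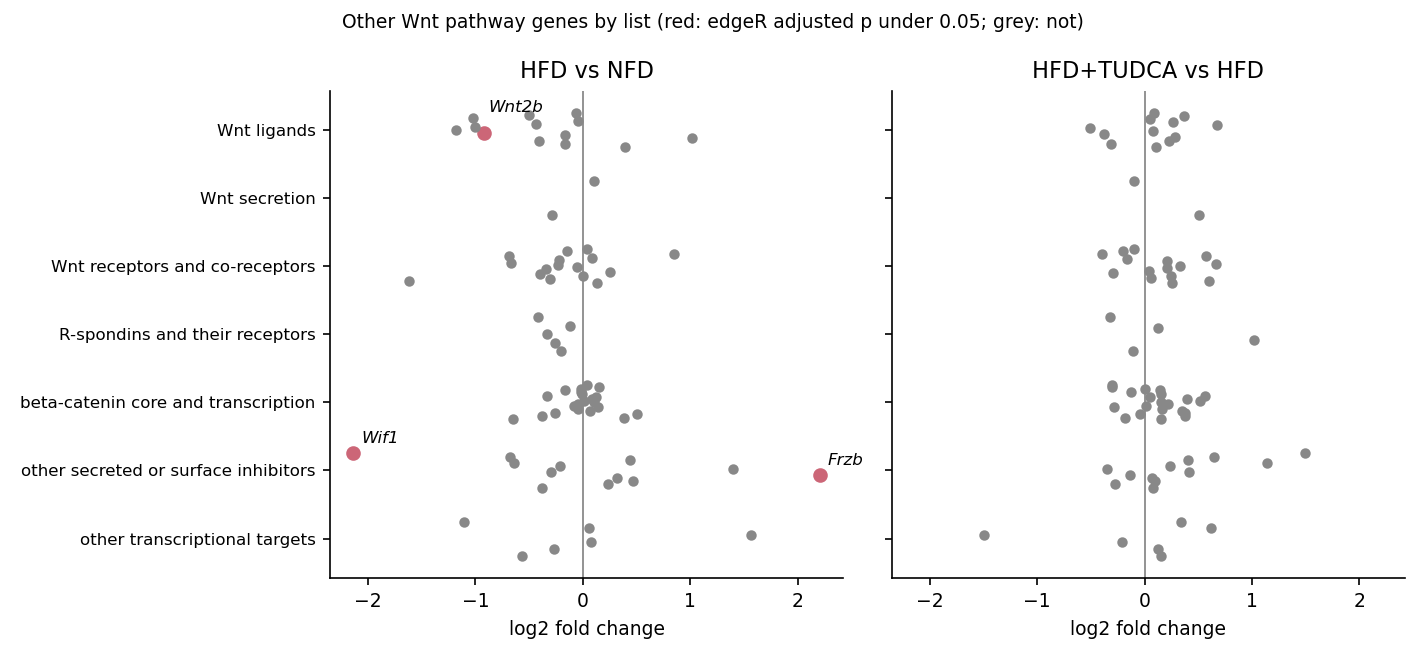
Log2 fold change (x axis) of the other Wnt pathway genes in 7 lists (y axis), 75 genes for HFD vs NFD and 72 for HFD+TUDCA vs HFD, with 1 point per gene and those called by edgeR in red. Wnt2b, Wif1 and Frzb are the called genes, all in HFD vs NFD.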

How the data were processed

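RNA of 12 mouse aorta libraries, in 3 groups of 4 by the sample titles, was enriched for poly(A) with beads before an NEBNext Ultra preparation, per the labels' protocols. The genome build was GRCm38, per the submitters' processing notes. For the aligner, the counter and the annotation, a name is not given in the sources used here. The authors deposited an estimated count and an FPKM value for each of 22183 genes and 12 libraries, per the file headers. Of the deposited counts, 8.53% to 9.43% per library were not whole, and all were rounded.

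Each comparison used edgeR 4.0.16 (R 4.3.3, quasi-likelihood, robust) with TMM scaling on its 8 libraries after filterByExpr (minimum count 10, minimum total 15), with p-values adjusted over all genes tested by the Benjamini-Hochberg method and calls at 0.05. The SE is the log2 fold change divided by the square root of F. The p-values set each group difference against the spread between libraries within groups. The labels do not say whether libraries are separate animals, so that spread may be technical. Log2 CPM used a prior count of 2. The labels' protocols name DESeq2 for the authors' own tests. DESeq2 1.42.0 and other settings were alternatives, and the test was checked on simulated data. The members, the 7 pathway lists and the 15 marker lists were chosen with earlier results of these data known. Named pathway genes were those called in a comparison and the most abundant tested gene of each list by mean CPM, and for likeness the 3 nearest genes of each member, without predicted genes; those of Dkk3 are not reported here. Coordinates are from GENCODE M21. Figures were drawn with matplotlib 3.10.9.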

Additional observations from a re-analysis of the deposited data

Results flagged for a closer look

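Of 27 sets of 4 libraries (9 genes in 3 groups), 2 held a library whose gap to the nearest other was more than 0.829 of the whole range of the set, which chance gives in about 1 in 20 sets. Both were HFD+TUDCA replicate 4, which also lay farthest from the middle on the first 2 principal components. Znrf3 was 10.8 CPM there, against 6.46 to 7.17 CPM in the other HFD+TUDCA libraries. Rnf43 was 0.558 CPM there, against 2.34 to 2.65 CPM, in the library with the lowest T cell markers (25.7 CPM).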

How the results depend on the processing

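The members' log2 fold changes moved by less than the SD between libraries in 377 fits under alternatives and by more in 1 (Znrf3 in HFD+TUDCA vs HFD, -0.23, without HFD replicates 1 and 4 and HFD+TUDCA replicate 4). Leaving out 1 of 4 libraries can hardly move a value by more than that SD, so this count does not measure how stable the values are. Their sign turned in 5 of 14 alternatives for Lef1 and 6 for Znrf3 in HFD+TUDCA vs HFD, in 3 each for Znrf3, Rnf43 and Dkk3 in HFD+TUDCA vs NFD, and in 1 each for Znrf3 in HFD vs NFD and Sfrp1 in HFD+TUDCA vs HFD, and in none for the rest. With DESeq2, calls in HFD vs NFD, HFD+TUDCA vs NFD and HFD+TUDCA vs HFD numbered 1715, 546 and 356 genes. These were 9.3%, 2.96% and 1.94% of the genes tested. Among pathway genes the calls numbered 9 of 86 and 5 of 85 in the first 2 comparisons. Of the 9 members, DESeq2 called 2 in HFD vs NFD and 1 in HFD+TUDCA vs HFD. The members were chosen with these values known, so member calls in any fit are not evidence about them. One fit of all 12 libraries called 115 of 15204 genes and 1 of 9 members in HFD+TUDCA vs HFD. Leaving out 1 library gave 178 to 1181 genes in HFD vs NFD (0 to 6 pathway genes, 0 to 2 members) and 4 to 682 genes in HFD+TUDCA vs NFD (0 to 4 pathway genes). A further alternative left out HFD replicates 1 and 4 and HFD+TUDCA replicate 4, chosen after seeing the data. It called 374 genes (2.42% of those tested) and 0 of 75 pathway genes in HFD vs NFD. In HFD+TUDCA vs NFD it called 682 genes (4.51%) and 4 of 75 pathway genes. In HFD+TUDCA vs HFD the log2 fold change was then -0.41 for Wnt2b, and without 1 library it ranged from -0.11 to 0.18 for Wnt2b and from -0.43 to 0.19 for Frzb. The cause of these changes was not tested. With the replicate number as a block, calls were 8 genes in HFD+TUDCA vs NFD, and in HFD vs NFD 1 pathway gene (Wif1, no longer Wnt2b or Frzb) and 1 member (Dkk3). Libraries of the same number had correlated deviations of 0.09 to 0.39 in HFD vs NFD. The values were -0.36 to -0.08 in HFD+TUDCA vs NFD and -0.47 to -0.23 in HFD+TUDCA vs HFD. In HFD vs NFD, numbers 2, 3 and 4 correlated best with their own number and number 1 did not. In the other comparisons no number did. The labels name no pairing, so the numbers are taken to name libraries. These values do not settle whether NFD and HFD libraries of the same number are paired. Depth limits Rnf43 most, with 9 to 62 counts.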

Other observations

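Other Wnt genes, named here after their values were seen, also stood apart in single groups or libraries. Sfrp4, a secreted relative of Sfrp1 and Sfrp2, averaged 11.6 ± 1.70 CPM in NFD, 30.5 ± 19.4 CPM with HFD and 23.7 ± 6.92 CPM under HFD+TUDCA (SD, n = 4 each). All Sfrp4 values of both high-fat groups were above those of NFD, but HFD vs NFD did not pass the test (log2 fold change 1.39 ± 0.37, edgeR adjusted p = 0.0616). Myc, a target gene of Wnt signaling and of many other pathways, was 70.5 CPM in HFD replicate 4, while the remaining HFD libraries held 16.1 to 17.7 CPM. Its range was 9.55 to 10.8 CPM in NFD and 6.14 to 12.8 CPM under HFD+TUDCA. Myc did not pass the test in HFD vs NFD (log2 fold change 1.56 ± 0.47, edgeR adjusted p = 0.0977). Nor did it pass in HFD+TUDCA vs HFD (-1.49 ± 0.50, edgeR adjusted p = 0.332).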
